A study of Caenorhabditis elegans with 12 samples.

Results

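The normal contact of the genome with the nuclear lamina was read from 4 libraries of wild-type early embryos of Caenorhabditis elegans (strain GW1), namely 2 LEM-2 immunoprecipitates and the 2 inputs that go with them. These are 4 of the 12 libraries of the study, taken by their labelled genotype and antibody, and all 504 windows of 200 kb on chromosomes I to V and X were used. The other 8 libraries came from met-2 set-25 double deletion embryos (strain GW638) and cec-4 deletion embryos (strain GW828), with the same antibody and input design, and served here to estimate the spread and for 1 comparison at the end. All embryos were harvested from synchronous liquid cultures at 20 °C and fixed with 2.16% formaldehyde for 30 minutes, so each library averages over the cell types and cell cycle stages of whole early embryos. Cultures were started from 400000 larvae per strain, and the 2 cultures per genotype were biologically independent.

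LEM-2 is an integral protein of the inner nuclear membrane and a member of the LEM domain family, related to human MAN1 and emerin. It lies beside the lamin meshwork, and chromatin that is cross-linked to it is taken as chromatin close to the nuclear rim. Worm chromosomes are holocentric and have no single centromere. Their autosomes are instead divided into a gene-dense centre with little meiotic recombination and arms on each side that recombine more, hold more repeats and carry more methylated lysine 9 of histone H3. Each chromosome also has a pairing centre near 1 end, where zinc finger proteins tether it to the nuclear envelope in meiosis.

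The wild-type libraries held between 10782721 and 12340446 counts, and the median window held between 19479.5 and 24830.5. Counts were divided by the library total and put on the usual CPM scale, and enrichment is the log2 ratio of LEM-2 to input after 1 CPM was added to both. Counting error of this value in the median window was 0.014 in replicate 1 and 0.013 in replicate 2, provided that counts are independent fragments. The 2 replicates differed from each other by more than that, with an SD of their difference over windows of 0.089. Over the 504 windows of the same genome their profiles correlated with a Pearson r of 0.99 (Spearman rho 0.99), given as a description, and 497 windows lay on the same side of 0 in both. Replicate 2 was the flatter of the 2, with a regression slope on replicate 1 of 0.90. Because a library is scaled to its own total, every value is relative to the other windows of that library. The median window lay at -0.12 in the fitted values, and at 0.02 when DESeq2 size factors replaced the library totals. Differences between regions of the same library do not depend on this choice.

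LEM-2 was high along the arms of all 5 autosomes, low in their centres, and low over nearly all of X. Autosomal arms took 54.8% and 52.9% of the LEM-2 counts of replicates 1 and 2 against 40.8% and 41.0% of the input counts. Autosomal centres took 30.1% and 31.3% of the LEM-2 counts against 41.0% and 40.9% of the input counts. The ratios of the 2 replicates lay on the same side of 0 in each of the 18 chromosome regions. Arms minus centres came to 0.89 in replicate 1 and 0.77 in replicate 2. Read from LEM-2 alone, per 200 kb, the difference was 0.76 and 0.65, and read from the inputs alone it was -0.12 and -0.12, so the immunoprecipitate carried most of it.

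In edgeR (quasi-likelihood test, Benjamini-Hochberg adjusted) 468 of 504 windows passed (92.9%), of which 204 lay above input (40.5% of windows) and 264 below (52.4%). With libraries scaled to their median window the split was 239 above and 213 below. Against these shares, 183 of the 215 autosomal arm windows were higher, and 106 of the 109 windows in the outer parts of the arms. Of the 106 windows in the inner parts, 77 were higher and 17 lower. In the centres 177 of 200 windows were lower and 11 were higher.

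**Figure D1:**
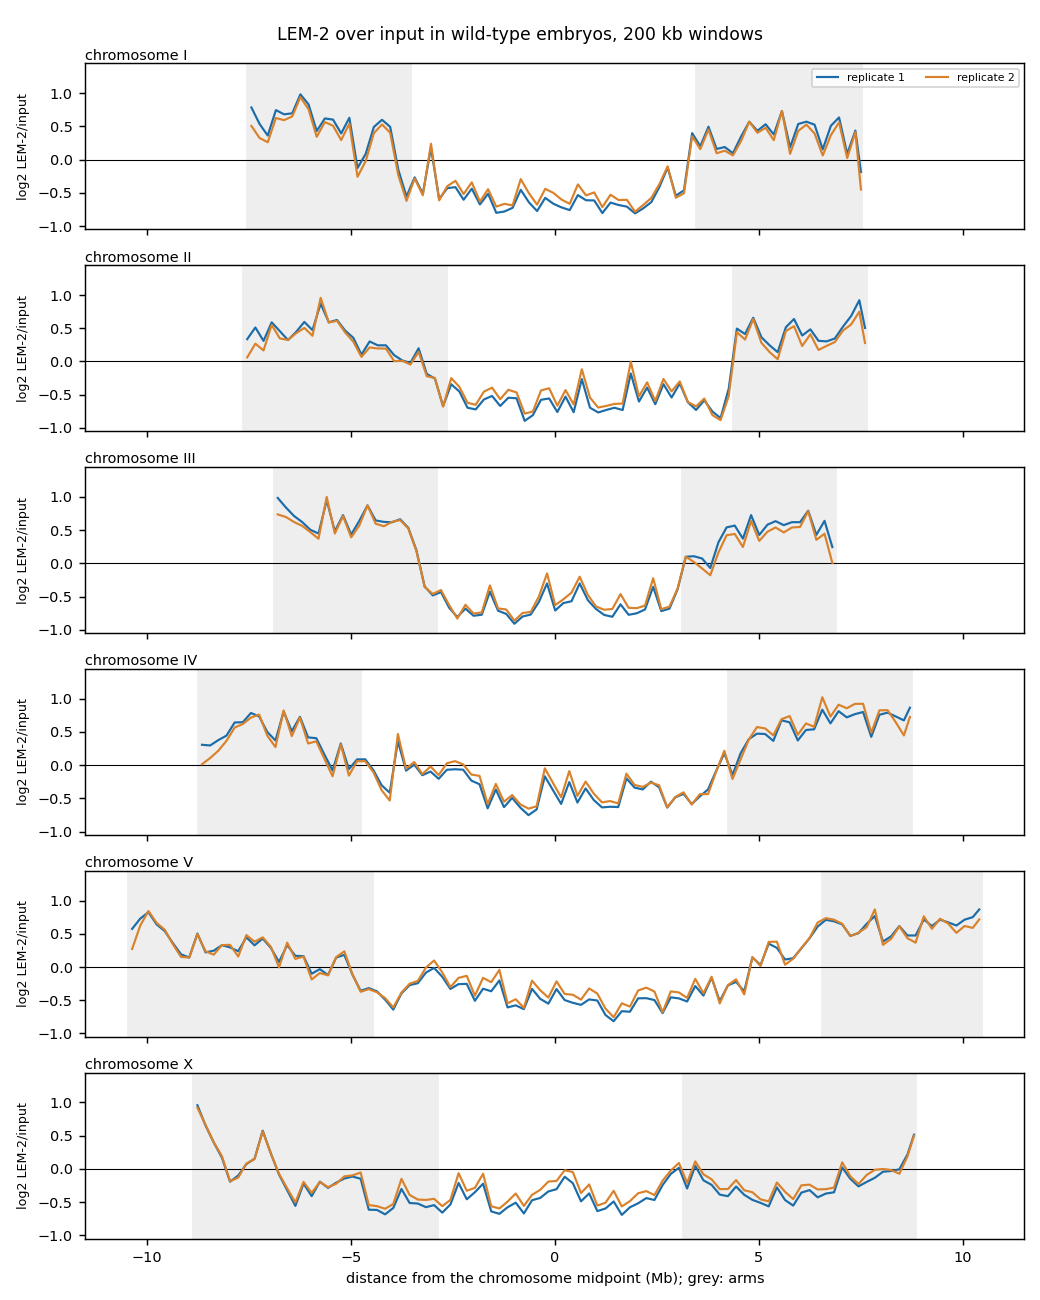
Log2 of LEM-2 over input in 200 kb windows (y axis) against the distance from the midpoint of each chromosome in Mb (x axis), with replicate 1 in blue, replicate 2 in orange and the arms in grey. The replicates follow each other closely, and arms minus centres came to 0.89 and 0.77.

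The arms were not equally enriched. The right arm of V had 0.63 in replicate 1 and 0.59 in replicate 2, and the right arm of IV had 0.58 and 0.62. These arms changed order between replicates and were followed by the left arm of III (0.53 and 0.49). II right (0.47 and 0.37), I left (0.46 and 0.36), III right (0.44 and 0.33), IV left (0.42 and 0.35) and I right (0.36 and 0.29) came next, in the same order in both replicates except that III right and IV left changed places. The left arms of II (0.28 and 0.22) and V (0.24 and 0.23) were the least enriched autosomal arms. On V the right arm stood above the left arm by 0.38 and 0.37, on IV by 0.16 and 0.28 and on II by 0.19 and 0.15. On I the right arm minus the left arm was -0.10 and -0.07, and on III it was -0.10 and -0.16. These levels use arm limits in whole Mb. On the left of II the limit (5 Mb) lay past the fitted step (4.4 Mb). In 1 Mb bins to 3 Mb from the end the arms of III, IV and V kept their order. II right was above II left in the first Mb but below it at 1 to 2 Mb (0.47 and 0.36 against 0.54 and 0.52). It was also below at 2 to 3 Mb (0.36 and 0.29 against 0.43 and 0.40). I right was above I left at 2 to 3 Mb (0.45 and 0.41 against 0.32 and 0.21).

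The centres also differed from each other. The centre of III lay at -0.61 ± 0.05, of II at -0.56 ± 0.05 and of I at -0.51 ± 0.05 (SD, n = 2). The 2 longest autosomes had shallower centres, with -0.31 ± 0.04 on IV and -0.28 ± 0.05 on V (SD, n = 2). In each replicate the centres of IV and V lay above those of I, II and III. The SD over windows was 0.31 in the centre of V, 0.26 in that of IV and 0.25 in that of I, against 0.17 in the centre of III and 0.18 in that of II. The right arm of V was the most even region, with an SD over windows of 0.13 and a lowest window at 0.36.

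**Figure D2:**
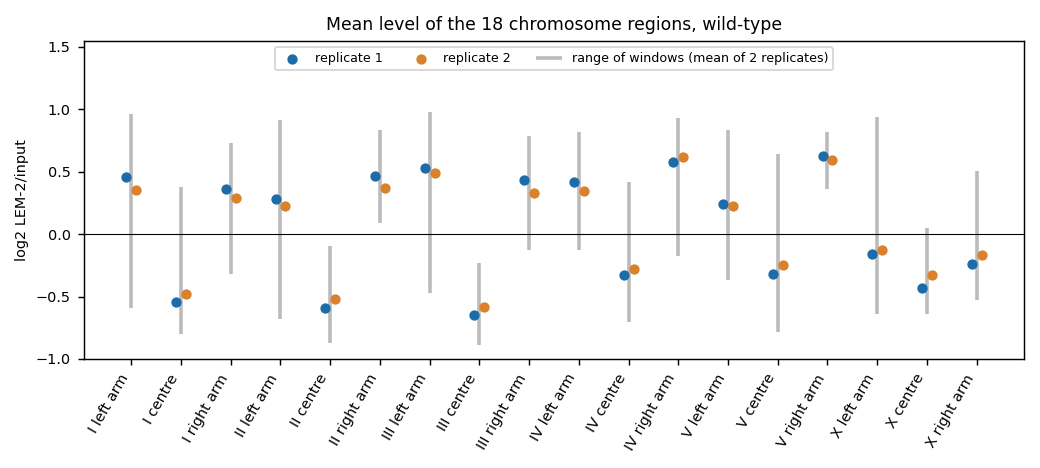
Mean log2 of LEM-2 over input (y axis) of the 18 chromosome regions (x axis), with 1 point per replicate, and a grey bar from the lowest to the highest window of the region. All 10 autosomal arms lie above 0 in both replicates, and the right arms of IV and V are highest at 0.60 and 0.61.

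As whole chromosomes, 5 autosomes lay close to 0 and X lay below. X had -0.28 in replicate 1 and -0.21 in replicate 2, and took 15.1% and 15.7% of the LEM-2 counts against 18.2% and 18.1% of the input counts. Chromosome IV was the highest whole chromosome (0.08 and 0.10), ahead of V (0.02 and 0.05), III (-0.01 and -0.02), I (-0.03 and -0.05) and II (-0.08 and -0.08). This order turned with medians over windows, which gave III 0.05, I 0.04, V 0.023 and IV 0.0059. In limma 25 of 28 region levels, 89.3%, differed from 0, and those that did not were the whole chromosomes I, III and V (limma adjusted p = 0.121, 0.564 and 0.146). The sign of an autosome's overall level depended on the scaling, since under TMM factors I, II and III lay at 0.06, 0.02 and 0.08. The left arm of X lost its call under that scaling (-0.04, limma adjusted p = 0.0866, against -0.14 with library totals). X was the lowest chromosome under both.

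The passage from arm to centre took very different forms. Its position was found for each chromosome by splitting the profile into 3 segments of constant level with least squares, with at least 5 windows a segment. The values near it are a description, since the profile itself set the position. To keep the size of a step apart from the replicate that placed it, the position was taken from 1 replicate and the mean of the 5 windows on the arm side minus that of the 5 on the centre side was read in the other.

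**Figure D3:**
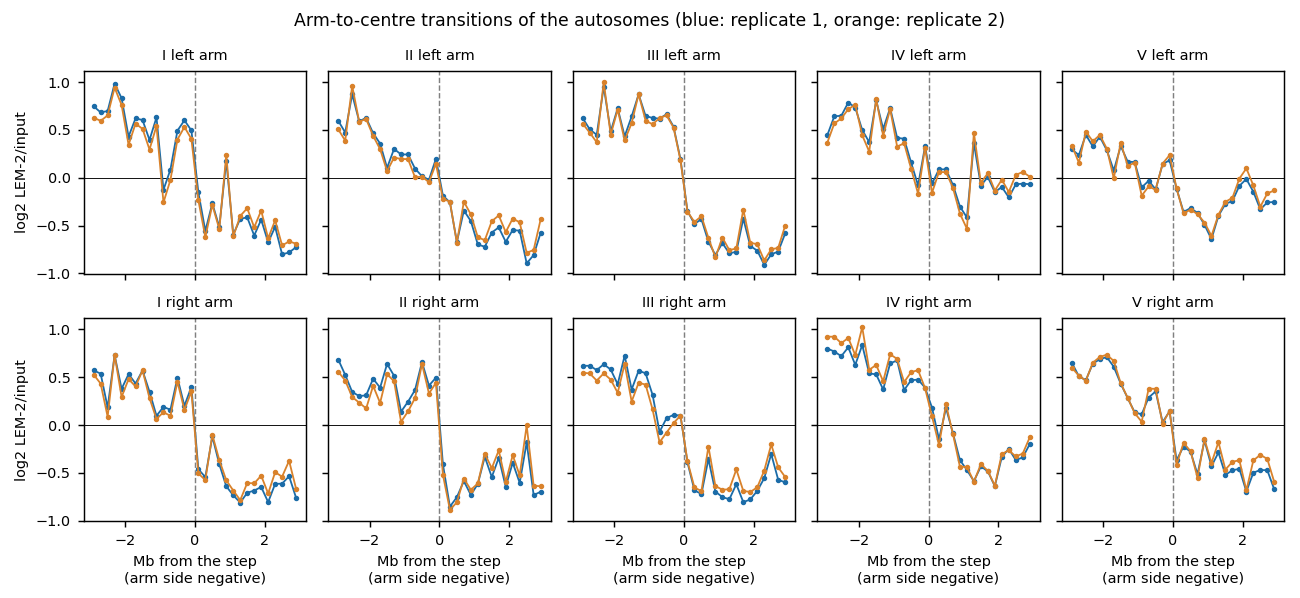
Log2 of LEM-2 over input (y axis) within 3 Mb of the fitted step (x axis, Mb from the step, arm side negative) for the 10 autosomal arms, with replicate 1 in blue and replicate 2 in orange. II right and III left fall steeply at the step, while the left arms of IV and V decline over several Mb.

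The 2 largest differences over 1 Mb were on the right side of II and the left side of III. On II the last centre window, 11.8 to 12 Mb, had -0.41 and -0.52 in the 2 replicates, and the first arm window, 12 to 12.2 Mb, had 0.50 and 0.44. Most of the change lay between these adjacent windows, after a smaller rise from -0.85 and -0.88 in the window before. The difference over 1 Mb on each side was 1.10 and 1.06, of which LEM-2 alone gave 0.82 and 0.77 and the inputs alone -0.28 and -0.28. On the left side of III 4 adjacent windows from 3.2 to 4 Mb had 0.54, 0.19, -0.35 and -0.48 in replicate 1 and 0.53, 0.18, -0.36 and -0.46 in replicate 2, and the difference over 1 Mb was 1.08 and 1.04. A logistic step fitted from the chromosome end to the midpoint gave this transition a width from 10 to 90% of its height of 0.61 Mb, 0.67 Mb in replicate 1 and 0.55 Mb in replicate 2. For the right side of II the fitted width ran to the lower limit of the fit, smaller than the window of 0.2 Mb, in both replicates, so it could not be resolved.

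Chromosome I had abrupt but interrupted borders. On its right side the window at 10.6 to 10.8 Mb had -0.46 and -0.51 and the next had 0.40 and 0.35, with a difference over 1 Mb of 0.72 and 0.66. The fitted width there was 1.28 Mb in replicate 1. In replicate 2 it ran to the lower limit of the fit, 0.044 Mb, which is below the window size. On its left side LEM-2 fell from 0.49 and 0.41 at 3.4 to 3.6 Mb to -0.15 and -0.24 in the next window and -0.56 and -0.62 in the one after. A first dip had come before it, at 2.6 to 3 Mb, and a single enriched window followed inside the centre at 4.4 to 4.6 Mb. With these interruptions the fitted width of the left transition of I was 3.18 Mb in replicate 1 and 0.18 Mb in replicate 2, so a single width does not describe it, although both replicates placed the step at 3.6 Mb.

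The right side of III rose in 2 stages. From 9.8 to 10 Mb to the next window LEM-2 rose from -0.39 and -0.38 to 0.10 and 0.10, and 4 windows from 10 to 10.8 Mb then stayed between -0.18 and 0.11 in either replicate before the level reached 0.54 and 0.42 at 11 to 11.2 Mb. The fitted width was 1.64 Mb and 1.78 Mb. The right transition of IV, placed at 13.2 Mb in replicate 1 and 13.4 Mb in replicate 2, had widths of 2.01 Mb and 1.62 Mb. On the left side of II LEM-2 declined with a width of 2.65 Mb and 2.41 Mb, and on the right side of V with 3.25 Mb and 2.55 Mb.

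The left side of IV had 2 separate drops with a shelf between them. In 1 Mb bins from the left end the mean ratio was 0.57 and 0.53 at 2 to 3 Mb, 0.09 and 0.03 at 3 to 4 Mb, and then stayed between -0.14 and -0.04 in either replicate from 4 to 7 Mb. It dropped again to -0.56 and -0.49 at 7 to 8 Mb. The second drop was sharp, from -0.29 and -0.16 at 6.8 to 7 Mb to -0.65 and -0.59 in the next window. The fitted step was placed at 3.6 Mb in replicate 1 and 3 Mb in replicate 2, and the logistic width of 6.46 Mb covers both drops.

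The left arm of V showed a long low plateau. Its first Mb had 0.66 and 0.59, and the bins from 1 to 4 Mb stayed between 0.27 and 0.31 in either replicate. Levels of 0.02 and -0.02 followed at 4 to 5 Mb, -0.09 and -0.09 at 5 to 6 Mb and -0.43 and -0.42 at 6 to 7 Mb, before the ratio returned to -0.16 and -0.10 at 7 to 8 Mb. The step was placed at 5.4 Mb in 1 replicate and 4.4 Mb in the other, the logistic width was 11.8 Mb and 3.58 Mb, and the difference over 1 Mb was 0.19 and 0.33, the smallest of the 10 autosomal arms in replicate 1 and, after the left arm of IV (0.29), the next smallest in replicate 2. On the mean profile the median width over the 10 autosomal transitions was 2.16 Mb. It was 2.33 Mb in replicate 1 and 1.70 Mb in replicate 2.

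Of the 10 autosomal steps 6 fell in the same window in both replicates. These were the steps of chromosome I (3.6 and 10.8 Mb), chromosome II (4.4 and 12 Mb) and chromosome III (3.6 and 10 Mb). The step on the right side of V was placed at 15.2 Mb in replicate 1 and 15.6 Mb in replicate 2. That side is the one where enrichment reaches furthest from the end. Its bins had 0.31 and 0.31 at 4 to 5 Mb from the end and 0.09 and 0.10 at 5 to 6 Mb, so that 7 windows between 15.2 and 17 Mb, inside the region counted as centre, were called higher than input.

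X had no long enriched arm. Its left end was enriched for less than 1 Mb, with 0.96 and 0.92 in the first window, 0.65 and 0.66 in the second, 0.40 and 0.40 in the third and 0.17 and 0.19 in the fourth. LEM-2 then lay below input at 0.8 to 1.2 Mb and above it again from 1.2 to 2 Mb, with a peak of 0.58 and 0.57 at 1.6 to 1.8 Mb. From 2 to 6 Mb all 20 windows were called lower than input. At the right end 2 windows were called higher, 17.4 to 17.6 Mb (0.22 and 0.19) and the last one (0.51 and 0.50). The segment method placed its steps on X at 2 and 15.8 Mb in both replicates, with differences over 1 Mb of 0.51 and 0.46 on the left and 0.22 and 0.21 on the right. The position of the logistic step ran to the edge of its allowed range on X, and the step is not used there.

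**Figure D4:**
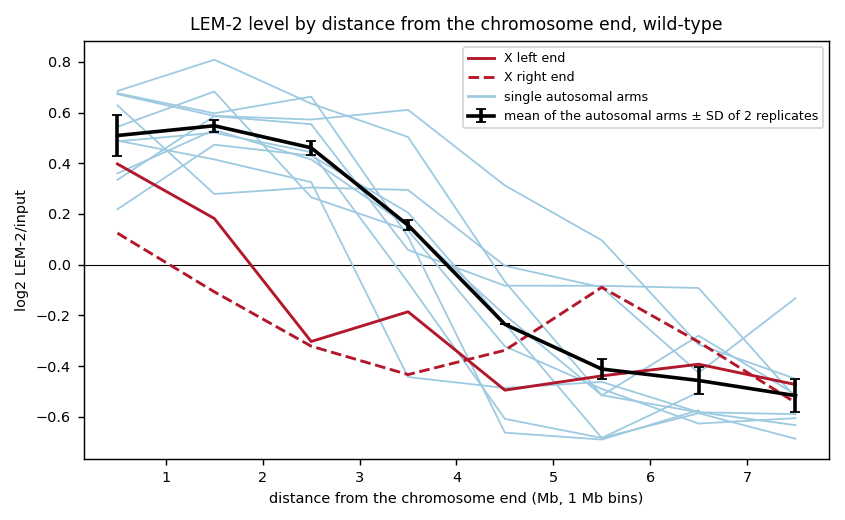
Mean log2 of LEM-2 over input (y axis) in 1 Mb bins of distance from the chromosome end (x axis), for single autosomal arms (light blue), their mean with the SD of 2 replicates (black) and both ends of X (red). The autosomal mean is 0.51, 0.55 and 0.46 in the first 3 bins and 0.16 at 3 to 4 Mb, while both ends of X fall from the first bin.

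Whether LEM-2 rises steadily toward the chromosome ends was asked with the slope of the ratio on the distance from the end, fitted in each library over the windows of an arm. Over whole arms the ratio fell inward in 10 of 12 arms (83.3%) in limma with Benjamini-Hochberg adjustment. The mean slope over the 10 autosomal arms was -0.12 per Mb in replicate 1 and -0.09 per Mb in replicate 2. The steepest were I left (-0.19 per Mb), III left (-0.19) and X left (-0.18), each with an SE of 0.01 (n = 2, limma adjusted p = 7.93e-19, 7.93e-19 and 3.6e-18). No call was made for I right (0.01, limma adjusted p = 0.237) and V right (-0.02, limma adjusted p = 0.0877). Without the last window of I the slope of I right was -0.03 and was called (limma adjusted p = 0.00182), and without replicate 2 V right was called (-0.04, limma adjusted p = 0.0103). II right had -0.05 per Mb over its whole length and -0.01 without its outermost 2 windows (limma adjusted p = 0.0669). Limma gave all arms the same error, so these p-values rest on a shared spread.

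The whole-arm slopes include the transition where it lies inside the arm, and how much of a slope it makes up was not tested. With only the outer part of each arm, a fit chosen after the profile had been seen, the mean autosomal slope was -0.02 per Mb in replicate 1 and 0.07 in replicate 2. That mean averages outer parts that fell and outer parts that rose inward. In limma 6 of 12 outer parts fell inward (50.0%) and 4 rose inward. Both outer parts of X fell inward, with -0.36 and -0.34 per Mb on the left in replicates 1 and 2 and -0.24 and -0.19 on the right. Unlike those of the autosomes, the outer parts of X still held the fitted steps (2 and 15.8 Mb), so their slopes include them. On the left of X LEM-2 alone gave -0.16 and -0.17 and the inputs alone 0.20 and 0.18, and on the right LEM-2 alone gave -0.17 and -0.15 and the inputs 0.07 and 0.04. Falls were also called for II right (-0.24 and -0.19), V left (-0.15 and -0.11), V right (-0.17 and -0.10) and III left (-0.18 and -0.08). A rise inward was called for II left (0.14 and 0.25), IV left (0.15 and 0.26), I right (0.22 and 0.26) and III right (0.05 and 0.10). LEM-2 alone rose inward at II left (0.10 and 0.20) and IV left (0.22 and 0.30), and had 0.01 and 0.01 at III right. At I right, last window included, LEM-2 alone fell inward (-0.68 and -0.67) and the inputs fell more (-0.90 and -0.93). Among the falls, II right had -0.09 and -0.07 in LEM-2 alone and 0.15 and 0.13 in the inputs. At V left, V right and III left LEM-2 alone fell, by -0.42 to -0.20. The inputs alone fell there too, though less, by -0.26 and -0.28 at V left. They fell by -0.09 and -0.14 at V right and by -0.07 and -0.12 at III left. The outer parts of I left (0.03 and 0.13) and IV right (-0.00 and 0.15) were not called, although IV right was with pooled inputs (limma adjusted p = 0.0409).

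Some of these outer slopes rested on 1 library or on the shared spread. With each arm's own variance the calls were lost for III left (limma adjusted p = 0.124), III right (0.0521) and V right (0.056). Without replicate 1 they were lost for III left (limma adjusted p = 0.0943), III right (0.057) and V right (0.057), and calls were gained for I left (0.0191) and IV right (0.00563), both rising inward. III right was also lost without replicate 2 (limma adjusted p = 0.368), and III left with the replicate block (limma adjusted p = 0.0798). Without the last window of I the rise of I right was 0.10 per Mb (limma adjusted p = 0.0147).

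In 1 Mb bins the mean over the 10 autosomal arms was 0.51 ± 0.08 in the first Mb, 0.55 ± 0.02 in the second and 0.46 ± 0.03 in the third (SD, n = 2), which did not differ beyond that spread between the first 2. It was 0.16 ± 0.02 in the fourth Mb and -0.24 ± 0.00 in the fifth (SD, n = 2). These means average arms whose outer parts fell and arms whose outer parts rose inward.

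The outermost windows themselves were compared with the windows 1 to 2 Mb from the same end, also after the profile had been seen. In limma 11 of 12 ends differed (91.7%), 5 of them lower (41.7%) and 6 higher at the tip. The low tips were IV left (-0.31 and -0.50 in the 2 replicates), I right (-0.38 and -0.45), II left (-0.12 and -0.36), III right (-0.13 and -0.25) and I left (-0.05 and -0.24). Without the last window of I the tip of I right was -0.23 and still called in limma. In LEM-2 alone, per 200 kb, the tip of IV left was lower (-0.45 and -0.59, inputs -0.14 and -0.09). At II left LEM-2 alone gave 0.00 and -0.19 and the inputs 0.12 and 0.17. At III right they gave -0.03 and -0.06 against 0.10 and 0.19, and at I left 0.06 and -0.09 against 0.11 and 0.14. At I right both were higher at the tip, LEM-2 by 1.69 and 1.66 and the inputs by 2.07 and 2.12. Higher tips were seen at both ends of X (0.62 and 0.61 on the left, 0.51 and 0.41 on the right), at both ends of V (0.37 and 0.17 on the left, 0.21 and 0.08 on the right), and at III left (0.30 and 0.13) and II right (0.25 and 0.15). At II right LEM-2 alone was higher by only 0.06 and 0.02, with the inputs at -0.19 and -0.14. At III left, V left and V right LEM-2 alone was higher at the tip by 0.23 to 0.39. The inputs alone were also higher at these tips, by 0.03 and 0.10 at III left and 0.02 and 0.09 at V left. At V right the inputs were higher by 0.17 and 0.25, against 0.38 and 0.33 in LEM-2 alone. The tip of IV right (0.02 and -0.28) was not called (limma adjusted p = 0.0524). With pooled inputs it was called low (limma adjusted p = 0.044) and I left was not (limma adjusted p = 0.0502). Replicate 1 had the higher tip in 12 of 12 ends. Without replicate 2 the low tips still called were IV left and I right. Without replicate 1 the high tips of II right, III left and V right lost their calls (limma adjusted p = 0.0563, 0.0874 and 0.286), and IV right was called low (-0.28, limma adjusted p = 0.00141). With each end's own variance 3 of the 5 low tips and 4 of the 6 high tips passed.

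LEM-2 and input contributed differently at the 2 ends of X. On the left the LEM-2 libraries alone, per 200 kb, had nearly the same level in the outermost windows as at 1 to 2 Mb (-0.06 and -0.01), and the inputs alone were lower there by -0.68 and -0.63. On the right LEM-2 alone was higher at the tip by 0.40 and 0.40, and the inputs alone differed by -0.11 and -0.02. The high ratio of the left tip of X thus came with a low input and an even LEM-2 level. At 0 to 0.2 Mb the inputs had 1057 and 1123 CPM against a median window of 2012 CPM. What lies behind the low input was not tested.

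Single windows that stood out from their surroundings were sought as the ratio of a window minus the median of its 5 nearest windows on each side. In limma 369 of 504 windows had a deviation past the threshold, and 69 (13.7%) also had a size of at least 0.3, 38 above (7.54%) and 31 below (6.15%). All 69 had the same sign in both replicates. Over all windows the deviations of the 2 replicates had Pearson's r of 0.97, as a description, so the roughness of the profile was seen in both cultures. Of the 69 windows 29 lay within 1 Mb of a fitted step, where the profile is steep, as did 120 of all 504. Autosomal arms held 15 above and 16 below, autosomal centres 13 above and 11 below, and X 10 above and 4 below.

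**Figure D5:**
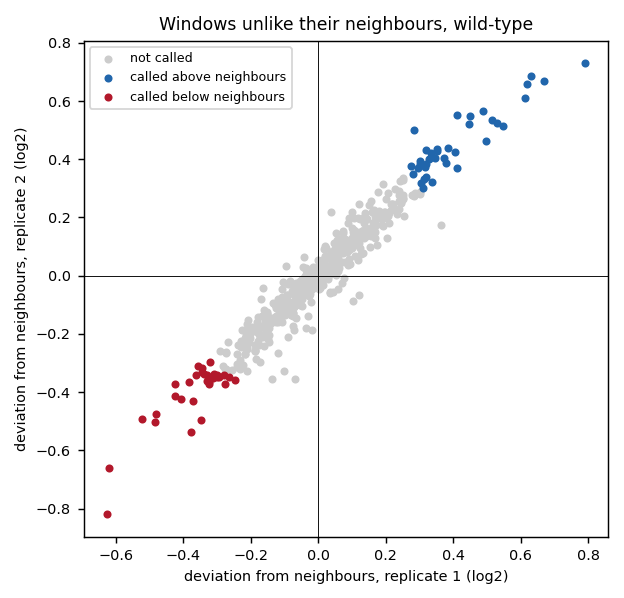
Deviation of each window from the median of its 5 neighbours on each side in replicate 1 (x axis) against replicate 2 (y axis), both on the log2 scale, with called windows in blue (above) and red (below). The called windows keep their sign in both replicates, and the deviations of all windows had r of 0.97.

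Of the 10 largest called deviations in each direction, 6 in all lay on the left of chromosome I between 2.6 and 4.6 Mb. The windows at 2.6 to 2.8 Mb (-0.13 and -0.26) and 2.8 to 3 Mb (0.09 and -0.02) interrupted an arm whose flanking windows had 0.63 and 0.54 before and 0.49 and 0.40 after them. Their deviations were -0.64 and -0.42. LEM-2 alone deviated at 2.6 to 2.8 Mb by -0.29 and -0.35 and the inputs by 0.32 and 0.31. The windows at 3.2 to 3.6 Mb, the last of the arm, stood above their neighbours by 0.64 and 0.52, and the window at 3.8 to 4 Mb, just past the step, stood below by -0.51. Inside the centre the window at 4.4 to 4.6 Mb had 0.18 and 0.24 between neighbours of -0.52 and -0.54 on 1 side and -0.59 and -0.61 on the other. It stood above its surroundings by 0.61 (limma SE 0.03, adjusted p = 5.81e-06), with LEM-2 alone at 0.45 and 0.49 and the inputs at -0.20 and -0.18.

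Chromosome IV had a similar enriched window in its centre. The window at 4.8 to 5 Mb had 0.36 and 0.47, next to a depleted one at 4.6 to 4.8 Mb with -0.42 and -0.53. Their deviations were 0.50 and -0.42. At 4.8 to 5 Mb LEM-2 alone deviated by 0.20 and 0.22 and the inputs by -0.40 and -0.44, so the inputs deviated more than LEM-2. The window II 9.4 to 9.6 Mb had -0.18 and -0.00 within a centre whose median window was -0.57, a deviation of 0.53 to which LEM-2 alone gave 0.26 and 0.33 and the inputs -0.26 and -0.26.

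On X the windows above their neighbours included 1.6 to 1.8 Mb (0.67), where LEM-2 alone deviated by 0.38 and 0.40 and the inputs by -0.33 and -0.29, and the last window (0.53), where LEM-2 alone deviated by 0.42 and 0.39 and the inputs by -0.09 and -0.04. For the first window (0.76) LEM-2 alone deviated by 0.02 and 0.03 and the inputs by -0.93 and -0.82, and for the second (0.53) LEM-2 alone by -0.00 and 0.02 and the inputs by -0.63 and -0.59. The window X 0.8 to 1 Mb stood below its neighbours by -0.42. Across the 69 exceptions LEM-2 alone deviated in the same direction as the ratio in 67, the inputs in the opposite direction in 63, and the LEM-2 deviation was the larger in 49. The median input was 1772 CPM in windows above and 2139 CPM in windows below, against 2012 CPM in all. What lowers or raises the input was not tested.

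The other exceptions among the 10 largest in each direction lay at steps or ends. They were II 12 to 12.2 Mb (0.66) and II 11.6 to 11.8 Mb (-0.48) on each side of the border of II, I 10.6 to 10.8 Mb (-0.49) beside that of I, II 4.8 to 5 Mb (-0.40) beside the left transition of II, and the last windows of I (-0.72) and III (-0.46). With neighbours taken only from the same arm or centre, the windows beside the borders of I and II fell under the size of 0.3 and lost their calls, with -0.01 at I 10.6 to 10.8 Mb, 0.14 at II 12 to 12.2 Mb and -0.28 at II 11.6 to 11.8 Mb. Under the same choice the deviation of I 3.2 to 3.4 Mb was 0.38, while I 3.8 to 4 Mb (-1.03) and II 4.8 to 5 Mb (-0.64) had larger deviations. These 2 windows lie past the fitted steps (3.6 and 4.4 Mb) but inside the arm limits. They were thus compared only with windows counted as arm, and the larger values do not show a stronger local exception. In the last window of I both were far above their neighbours, LEM-2 alone by 3.21 and 3.10 and the inputs by 3.74 and 3.79. In the last window of III LEM-2 alone deviated by -0.04 and -0.09 and the inputs by 0.34 and 0.40.

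Few other windows went against their region. Runs of 2 or more adjacent autosomal arm windows called lower than input were all at the inner edge of an arm, namely I 3.6 to 4 Mb, II 4.4 to 5 Mb, III 3.6 to 4 Mb and V 5.4 to 6 Mb. Each began at the step fitted on the mean profile, so these runs lay on the centre side of the fitted border, within the whole-Mb arm limit. The only runs of 2 or more centre windows called higher lay on V, at 15.6 to 16 Mb (2 windows) and 16.2 to 17 Mb (4 windows, the highest of which had 0.64 and touched the arm). Both lay on the arm side of the fitted step (15.2 Mb in replicate 1 and 15.6 Mb in replicate 2). On the arms of X the longest runs of lower windows were 20 windows at 2 to 6 Mb and 17 windows at 12.4 to 15.8 Mb, and shorter ones lay at 0.8 to 1.2 Mb and 16 to 16.6 Mb. Between 2 and 17 Mb of X the highest ratios were at 12.2 to 12.4 Mb (0.05 and 0.11), 15.8 to 16 Mb (0.02 and 0.10) and 11.8 to 12 Mb (0.02 and 0.09), none of which edgeR called.

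On each chromosome the highest and the lowest window lay far apart. The highest fitted ratios were 0.96 at I 1.2 to 1.4 Mb, 0.92 at II 1.8 to 2 Mb, 0.98 at III 1.2 to 1.4 Mb, 0.93 at IV 15.2 to 15.4 Mb, 0.83 at V 0.4 to 0.6 Mb and 0.94 at the first window of X. On the autosomes none of these was the outermost window, and those of I, II and III lay between 1 and 2 Mb from the left end. The lowest were -0.80 at I 9.4 to 9.6 Mb, -0.87 at II 11.6 to 11.8 Mb, -0.89 at III 5.8 to 6 Mb, -0.70 at IV 8 to 8.2 Mb, -0.79 at V 11.8 to 12 Mb and -0.64 at X 4.6 to 4.8 Mb. On II the most depleted window of the chromosome lay only 0.2 Mb from the border at 12 Mb, beyond 1 other centre window.

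The same segment method was run on the 4 mutant ratios, whose values are set beside the wild type as a description. The step on the right side of II was at 12 Mb in all 6 ratios, that on the right side of III at 10 Mb in all 6 and that on the left side of I at 3.6 Mb in all 6. The right step of I lay at 10.8 Mb in both wild-type ratios, at 11.2 Mb in both met-2 set-25 ratios and at 14 Mb in both cec-4 ratios. The right step of V lay at 15.2 and 15.6 Mb in wild-type, at 15.2 Mb in both met-2 set-25 ratios and at 20 Mb in both cec-4 ratios. The cec-4 positions on the right of I and V split off the outermost part of the chromosome and need not be the same border as in wild-type. The left step of II lay at 4.4 Mb in both wild-type, 4.8 Mb in both met-2 set-25 and 1 Mb in both cec-4 ratios. That of IV lay at 3.6 and 3 Mb in wild-type, 2.6 Mb in met-2 set-25 and 7 Mb in cec-4. That of III lay at 3.6 Mb in wild-type, 3.4 Mb in met-2 set-25, and 3.6 and 1 Mb in cec-4. The right step of X lay at 15.8 Mb in wild-type, 15.8 and 11.4 Mb in met-2 set-25 and 11.4 Mb in cec-4. V left, IV right and X left also varied. On the right side of I the logistic step in cec-4 had heights of -0.70 and -0.64 at 14.9 and 14.7 Mb, a fall toward the end. This fall includes the last window of I, which had -0.82 and -0.96 in cec-4. The fits of the mutant steps were not repeated without that window. Whole-arm slopes differed from wild-type in limma in 10 of 12 arms of the met-2 set-25 embryos (83.3%) and in 11 of 12 arms of the cec-4 embryos (91.7%), with the wild-type libraries shared by both comparisons.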

How the data were processed

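The authors deposited raw counts per 200 kb window, 1 column per library, made with Bowtie per the submitters' processing notes. The read filters, the counting of pairs and the build were not given in the sources used here, so positions are those of the windows and no gene or sequence was assigned to them. The libraries were amplified with 15 PCR cycles, per the labels' protocols, which name no molecular identifiers, so counting errors cover counting only. The log2 values the authors deposited equal log2 of the count scaled to the mean library total plus 1 (largest difference 5.15e-14) and were not used further.

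Windows were tested with edgeR 4.0.16 (R 4.3.3; glmQLFit, glmQLFTest) on all 12 libraries with 1 mean per group and library totals, and with Benjamini-Hochberg adjustment at 0.05. A minimum mean of 100 counts removed 0 windows. Region means, slopes, tips and deviations were computed per ratio (LEM-2 over the input of the same number, pseudocount 1 CPM) and tested against 0 with limma 3.58.1 over the 6 ratios of the 3 genotypes. The library is the replicate, and p-values rest on 2 cultures per genotype and on a spread shared between genotypes. Arm limits, in whole Mb, were 4 and 11 on I, 5 and 12 on II, 4 and 10 on III, 4 and 13 on IV, 6 and 17 on V and 6 and 12 on X, and outer and inner parts meet at an arm's midpoint. Values of LEM-2 or input alone were scaled to 200 kb. Both tests and the logistic fit were tested on simulated data, and the split into 3 segments was not. Windows were named as the highest and lowest of each chromosome, the 10 largest called deviations each way, and runs of 2 or more windows against their region. The regions, tests and lists were chosen with earlier results of these data known.

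Strains were grown in parallel in numbered replicates, per the labels' protocols, and the numbers were taken to pair libraries. The difference of replicate 2 from replicate 1 of LEM-2 wild-type correlated with that of the wild-type input at -0.28, and with LEM-2 in met-2 set-25 and cec-4 at -0.55 and -0.16. Alternatives were TMM and DESeq2 1.42.0 scaling, the DESeq2 Wald test, a pseudocount of 10 CPM, pooled inputs, medians, a replicate block, other neighbour counts and leaving out libraries or windows. Outer slopes, tips, each feature's own variance, the fit without the last window of I, median-window scaling, the crossed block and neighbours of the same region were added after the data had been seen.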

Additional observations from a re-analysis of the deposited data

Results flagged for a closer look

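The slope of the LEM-2 ratio on the distance from the chromosome end differed between the genotypes in limma with Benjamini-Hochberg adjustment over 12 arms, by a test of the difference itself. Values are wild-type minus mutant in log2 per Mb, and below 0 means a steeper inward fall in wild-type on all arms listed except I right. On I right the slope was 0.01 in wild-type and 0.06 in both mutants, so the mutants rose more inward. These I right slopes include the last window of I, without which the wild-type slope was -0.03. Both mutants were compared with the same wild-type libraries, and the slopes include the transition where it lies inside the arm. In met-2 set-25 the differences below 0 were on the left arms of I (-0.10), II (-0.063), V (-0.066) and X (-0.078) and the right arms of I (-0.047), III (-0.052) and X (-0.034). Differences above 0 were on the right arms of II (0.061) and V (0.061) and the left arm of IV (0.074). In cec-4 the differences below 0 were on the left arms of I (-0.13), II (-0.092), III (-0.050), V (-0.083) and X (-0.092) and the right arms of I (-0.049), III (-0.078) and X (-0.043). Those above 0 were on the right arms of II (0.035) and V (0.17) and the left arm of IV (0.071). No cause was tested.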

How the results depend on the processing

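The number of windows that differed from input (468) lay between 452 and 473 in all alternatives and between 454 and 470 without 1 wild-type library, and was 471 both with the replicate block and with a block in which the LEM-2 wild-type numbers were crossed. Leaving out the filter on low counts changed nothing, since it removed 0 windows. The 25 called region levels were 23 to 27. The number of arms with a whole-arm slope (10) was 10 or 11, and outer parts falling inward (6) were 4 to 6. Among region levels, slopes, tips and the named windows the block changed 1 call, the outer slope of III left given above. Exceptions of at least 0.3 (69) numbered 63 to 84, against 369 with no minimum size. Arms minus centres (0.83) was 0.93 with medians over windows and 0.77 to 0.89 without 1 replicate. The median transition width (2.16 Mb) was 1.70 to 2.33 Mb without 1 replicate. The mean autosomal slope (-0.11 per Mb) was -0.13 without the outermost 2 windows and 0.025 over the outer parts, where the transition is left out by construction. Low tips (5) numbered 2 to 6 without 1 replicate and 3 with each end's own variance, and with pooled inputs their number was 5 with I left lost and IV right gained. Signs turned for the whole chromosomes I (0.0596), II (0.0187) and III (0.0848) under TMM factors and I (0.0433) and III (0.0515) with medians, under which II (limma adjusted p = 0.712) and IV (0.850) lost their calls. The slope of the right arm of I turned without the last window of I (-0.0349) and without the outermost 2 windows (-0.0347). For the right arm of IV, without 1 replicate, the tip ranged from -0.283 to 0.0239 and the outer slope from -0.00104 to 0.152. The causes were not tested. With 2 replicates and windows of 0.2 Mb, narrower borders cannot be resolved.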

Other observations

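A few windows had unusual input levels. The last window of I, 15 to 15.0724 Mb, at the end of the chromosome known to carry the tandem ribosomal RNA genes, held 10007 and 10818 CPM in the inputs and 8792 and 7923 CPM in the LEM-2 libraries. Its ratio was -0.19 and -0.45 and did not differ from input by edgeR. The lowest input window, V 2.4 to 2.6 Mb, held 3845 and 4228 counts, and LEM-2 was as low there against its neighbours (-2.43 and -2.44 on the log2 scale, inputs -2.39 and -2.40). Its ratio of 0.30 and 0.33 deviated from its neighbours by 0.0025.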
